A study of Mus musculus with 16 samples.

Results

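The comparison described here is the transcript change that nocodazole produced in sensory neurons whose dual leucine zipper kinase (DLK) was inhibited. It takes 8 of the 16 libraries of the series, chosen by their labels: 4 that received the DLK inhibitor GNE3511 and then nocodazole, and 4 that received the inhibitor and then vehicle. All libraries came from dorsal root ganglion neurons of CD1 mouse embryos, with no genetic change named, kept in growth medium with nerve growth factor, 5-fluoro-2'-deoxyuridine and uridine. At 6 days in vitro the cultures were given 500 nM GNE3511 or DMSO, the vehicle, and 15 min later 200 nM nocodazole or DMSO for 16 h. The 8 libraries without inhibitor, 4 with nocodazole and 4 with DMSO alone, serve only for setting values side by side and for the test of a difference between the changes with and without inhibitor. A single inhibitor at 1 dose was used, so its action on DLK and on any other target cannot be told apart. The labels do not say whether replicates were separate cultures, so the p-values rest on sample-to-sample spread alone, and that spread may be technical.

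Microtubules are polymers of alpha- and beta-tubulin, and nocodazole holds tubulin in its free form so that they come apart. Neurons lower their tubulin mRNA when free tubulin is plentiful, a feedback called tubulin autoregulation, in which ribosomes that translate tubulin recruit Ttc5 and then the mRNA decay machinery. DLK is a MAP kinase kinase kinase that relays axon and cytoskeletal damage through JNK to transcription factors such as Jun and Atf3, and to the integrated stress response with its factors Atf4 and Ddit3. A further pathway that bears on the results is sterol synthesis. When sterol in the endoplasmic reticulum falls, the SREBP proteins travel to the Golgi, are cleaved there and switch on genes for cholesterol and fatty acid synthesis, while Insig1 holds them back.

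The 8 libraries held 31295392 to 39932332 counts each. Levels are in CPM, the count of a gene relative to the TMM-scaled library total. A gene is called higher or lower when its edgeR quasi-likelihood p, adjusted by Benjamini-Hochberg over all tested genes, is below 0.05, and changes are log2 fold changes ± SE. The cultures carried neuronal transcripts: the 27 pan-neuronal genes summed to 21200 to 26340 CPM. The 25 glial markers summed to 2678 to 3462 CPM with vehicle and 2379 to 3482 CPM with nocodazole, most of it from Ngfr and L1cam, which sensory neurons also express, while Sox10, which defines the glial lineage, stayed at or below 0.407 CPM in every library. The 18 fibroblast, 10 endothelial, 12 macrophage and 10 mural cell markers summed to at most 115.2, 1.597, 3.219 and 24.76 CPM. No gene of these 4 lists or of the glial list was called with inhibitor.

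The first replicate of the inhibitor plus nocodazole group stood apart from the other 3. The main counts and list medians with inhibitor are therefore given with and without it. For many single genes the change is printed for a single set of samples, beside the CPM of each library. Its summed tubulin mRNA was 8990 CPM, against 16630, 16270 and 15380 CPM in replicates 2 to 4. The first principal component of the 8 libraries, which took 32.4% of their variance, placed it at 52.13, while replicates 2 to 4 lay between -20.71 and -14.09. Each library was also set along the nocodazole change seen without inhibitor, over the 7187 genes called there, as a slope of its difference from the inhibitor plus vehicle libraries, where 1 would be the whole of that change. That slope was 0.3076 for replicate 1 and -0.02568, -0.03327 and -0.0197 for replicates 2 to 4. Mitochondrially encoded transcripts took 1.712% of the counts of replicate 1 and 0.8652% to 1.093% of those of replicates 2 to 4. The part of these differences in any result was not tested. In bulk RNA, fewer cells of a type and less RNA per cell cannot be told apart.

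The vehicle side was itself uneven. On the same slope the inhibitor plus vehicle libraries, each set against the other 3, lay at -0.1837, 0.2025, 0.1241 and -0.1428 for replicates 1 to 4. Replicates 2 and 3 also had the lower summed tubulin mRNA, 15950 and 17260 CPM against 19270 and 20360 CPM. Their mitochondrial share was 1.387% and 1.78%, against 1.079% and 1.06%. The spread within the vehicle group along this axis was thus wider than the distance of nocodazole replicates 2 to 4 from its mean.

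**Figure D1:**
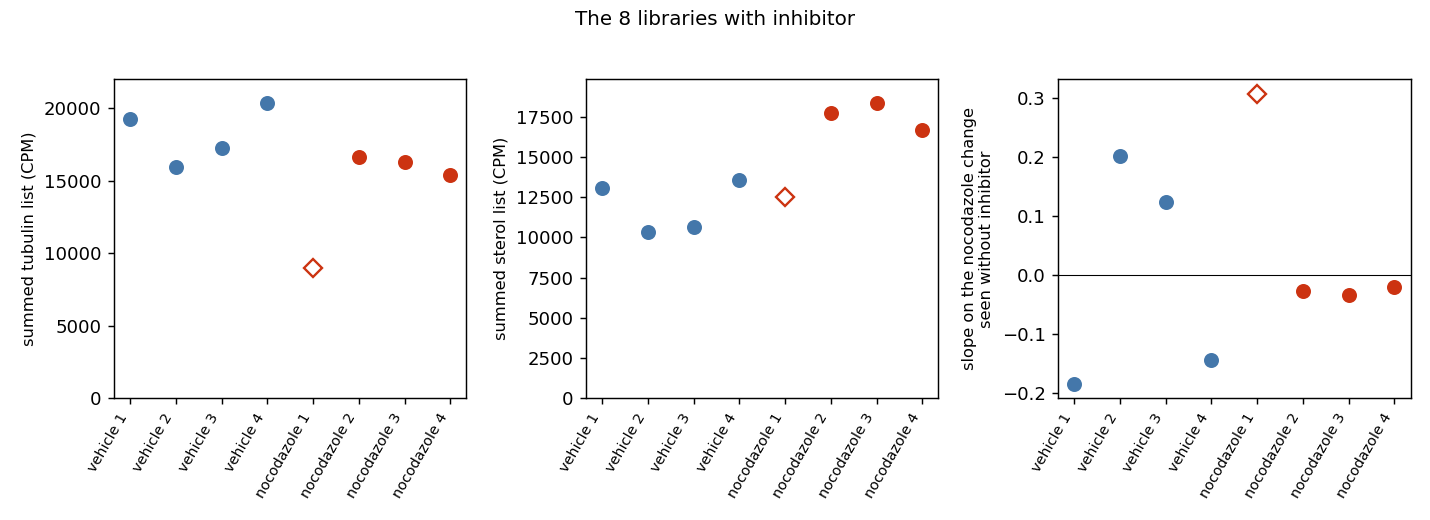
Summed CPM of the 20 listed tubulin genes (left), of the 29 listed sterol genes (middle), and the slope on the nocodazole change seen without inhibitor (right, no unit), for each of the 8 libraries with inhibitor. Blue points are vehicle, red points nocodazole, and the open diamond is nocodazole replicate 1, which is lowest in tubulin mRNA at 8990 CPM, within the vehicle range in sterol mRNA at 12530 CPM and highest in slope at 0.3076.

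With the inhibitor present, few transcripts were called as changed with nocodazole, and a gene without a call is not shown to be unchanged. Of 19156 genes tested in all 16 libraries, 15 were called higher (0.0783% of them) and 1 was called lower (0.00522%). Without inhibitor the same test called 3556 genes higher (18.6%) and 3631 lower (19.0%). The nocodazole change itself differed between the presence and absence of inhibitor for 3587 genes: it was more positive with inhibitor for 1824 (9.52%) and more negative for 1763 (9.20%). The count with inhibitor moved with every library: leaving out 1 of the 7 libraries apart from nocodazole replicate 1 gave 3 to 8 genes higher and 0 lower, and DESeq2 called 118 and 7 with all libraries. Without nocodazole replicate 1, 83 of 19479 genes were called higher (0.426%) and 5 lower (0.0257%), the 16 calls from all libraries among them, and the change differed upward for 2740 genes (14.1%) and downward for 2478 (12.7%). At an unadjusted p under 0.05 there were 1146 genes with all libraries and 1485 without replicate 1. If no gene changed, a share near 0.05 of the 19156 and 19479 tested genes would still fall there. The median SE was 0.144, and 1 called gene reached 2-fold with all libraries, against 11 without replicate 1.

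The 15 genes called higher have varied known functions. The largest change among them was that of Usp1, which encodes a ubiquitin protease that acts on DNA repair proteins. Usp1 measured 5.92, 4.45, 5.04 and 6.58 CPM in the vehicle libraries and 8.36, 18.5, 15.8 and 18.4 CPM in the nocodazole libraries. Replicate 1 was the lowest of the nocodazole values, and still above all vehicle values. The change was 1.47 ± 0.203 (adjusted p = 0.00725), and 1.67 ± 0.137 without replicate 1 (adjusted p = 2.81e-05). Without inhibitor its mean was 4.14 CPM with vehicle and 5.32 CPM with nocodazole, which did not pass the test with all libraries (adjusted p = 0.185) and passed in the fit without replicate 1 (0.0425). Its nocodazole change was larger with inhibitor, by 1.11 ± 0.289 (adjusted p = 0.0144). Its call was lost without vehicle replicate 3 (adjusted p = 0.0537) and with the libraries without inhibitor left out of the fit (0.104).

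Erg28 and Per3 passed the test under every alternative that was run. Erg28, a scaffold protein of the sterol demethylation complex, measured 22.5, 22.7, 21.9 and 24.3 CPM with vehicle and 40.7, 48.6, 46.2 and 42.6 CPM with nocodazole. The 4 nocodazole values lay clear of the vehicle values, replicate 1 included. The change was 0.96 ± 0.124 (adjusted p = 0.00644), and without inhibitor Erg28 also rose, by 0.67 ± 0.126 (adjusted p = 0.000505). Per3, a period protein of the circadian clock, measured 7.33, 8.31, 8.64 and 8 CPM with vehicle and 14.7, 16.9, 13.5 and 13.9 CPM with nocodazole. That is a change of 0.87 ± 0.116 (adjusted p = 0.00644), beside 0.68 ± 0.122 without inhibitor (adjusted p = 0.000387). For neither gene did the changes with and without inhibitor differ by the test, with interactions of 0.29 ± 0.176 for Erg28 and 0.20 ± 0.168 for Per3, which does not show that they were alike.

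Lpin1, the phosphatidate phosphatase that supplies diacylglycerol for phospholipids and fat, measured 42.8, 37.3, 37.0 and 43.5 CPM with vehicle and 66.8, 77.7, 68.0 and 84.8 CPM with nocodazole. Its change of 0.89 ± 0.124 (adjusted p = 0.00725) compared with 1.17 ± 0.124 without inhibitor. Kdm4a, a histone demethylase, measured 140, 143, 143 and 131 CPM with vehicle and 169, 190, 182 and 186 CPM with nocodazole, a smaller change of 0.38 ± 0.0483 (adjusted p = 0.00644) with a narrow spread. Both genes separated the groups in every library. The Lpin1 call was lost without vehicle replicate 3 (adjusted p = 0.0537), and that of Kdm4a in the fit of the libraries with inhibitor alone (0.0728).

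The remaining 10 genes called higher were closer to the threshold, with adjusted p from 0.0142 to 0.0465, and in the fit of the libraries with inhibitor alone none of them was called. Ifrd1, a transcriptional co-regulator, rose from 24.6, 35.3, 34.5 and 30.1 CPM to 56.9, 44.9, 51.8 and 50.2 CPM, and Ciart, a circadian repressor, from 4.52, 6.63, 5.92 and 4.63 CPM to 11.8, 8.89, 9.09 and 7.38 CPM. In both genes replicate 1 was the highest nocodazole library. Both rose more without inhibitor: the difference was -1.16 ± 0.180 for Ifrd1 (adjusted p = 0.000461) and -1.04 ± 0.200 for Ciart (0.00212). Xbp1, the transcription factor of the unfolded protein response, changed by 0.33 ± 0.0589 with inhibitor and by 0.64 ± 0.0588 without (difference -0.31, adjusted p = 0.0171). Myo16, an unconventional myosin, was the fourth gene of this kind, at 0.58 ± 0.102 with and 1.11 ± 0.105 without inhibitor (adjusted p of the difference 0.0182).

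Borcs6 and Nfe2l1 went the other way, as Usp1 did. Borcs6, a subunit of the BORC complex that couples lysosomes to kinesins, measured 29.8, 24, 27.5 and 31 CPM with vehicle and 34.3, 40.7, 43.9 and 49.8 CPM with nocodazole. Without inhibitor it did not pass the test (-0.10 ± 0.103), and the difference was 0.69 ± 0.145 (adjusted p = 0.00396). Nfe2l1, an endoplasmic reticulum-anchored transcription factor for proteasome genes, changed by 0.33 ± 0.0553 with inhibitor and by 0.06 ± 0.0552 without (difference 0.27, adjusted p = 0.0238). Its 4 vehicle libraries lay between 608 and 632 CPM and its nocodazole libraries between 704 and 813 CPM. Siah2, a ubiquitin ligase, Esyt2, a lipid-transfer tether between the endoplasmic reticulum and the plasma membrane, the co-chaperone gene Sgtb and the calpain gene Capn10 changed by 0.54, 0.48, 0.32 and 0.31, with no call of a difference from the change without inhibitor. Leaving out replicate 1 gave such a call for Esyt2 (0.36 ± 0.101, adjusted p = 0.015).

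Rusc1, a neuronal adaptor protein, was the 1 gene called lower. It measured 292, 299, 281 and 292 CPM with vehicle and 249, 215, 228 and 232 CPM with nocodazole, a change of -0.33 ± 0.0581 (adjusted p = 0.0456). All 4 nocodazole libraries lay below all vehicle libraries. The call was lost on leaving out any 1 of the 7 libraries with inhibitor apart from nocodazole replicate 1 (adjusted p from 0.1 to 0.208), and with the libraries with inhibitor alone (0.125). Without inhibitor Rusc1 was also called lower, by -0.15 ± 0.058 (adjusted p = 0.0489). Of the 15 genes called higher, 11 were called higher without inhibitor as well and 0 were called lower, beside 18.6% and 19.0% of all genes. The 2 contrasts share no library.

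**Figure D2:**
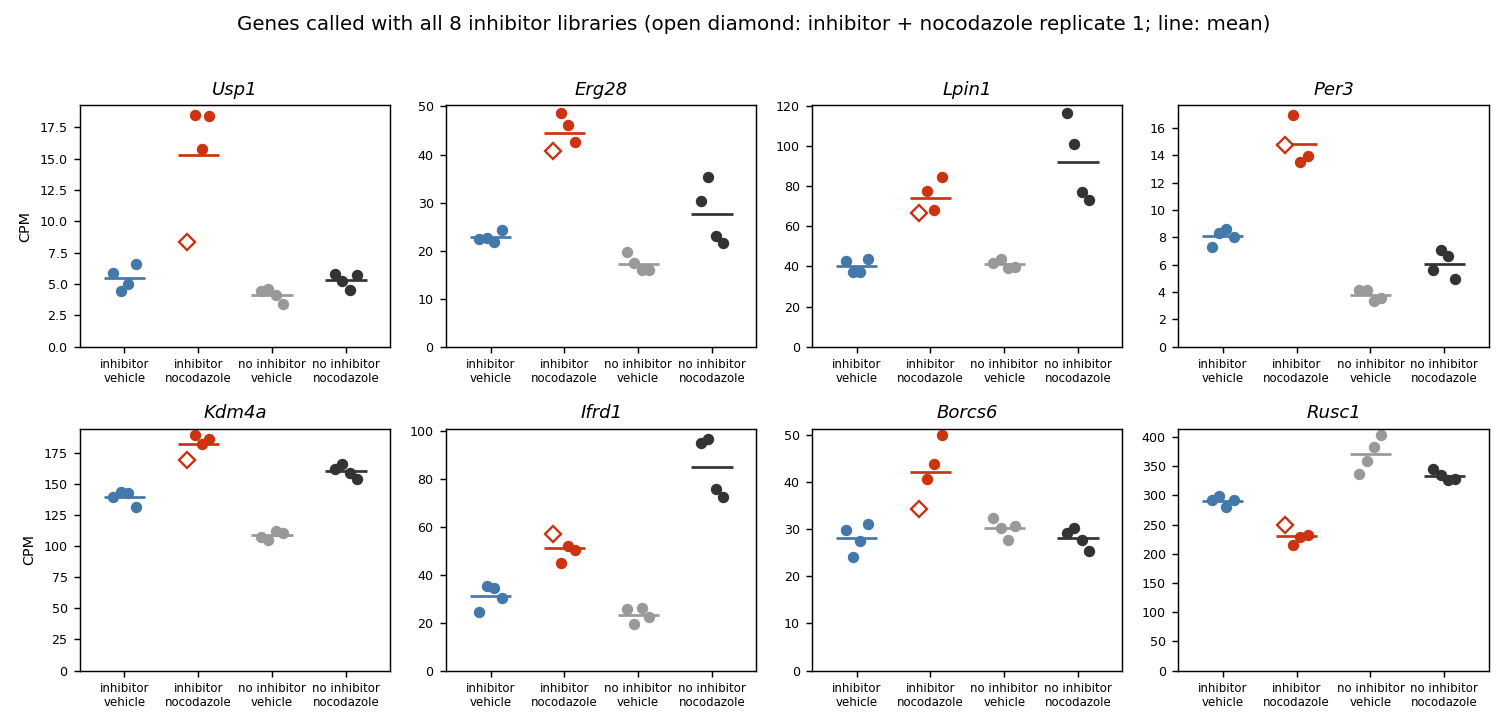
CPM (vertical axes, from 0) of 8 of the 16 called genes in all 16 libraries, by group, with the mean as a line and nocodazole replicate 1 of the inhibitor group as an open diamond. In each panel the red points lie clear of the blue points, for example 8.36 to 18.5 against 4.45 to 6.58 CPM for Usp1, and lower for Rusc1, at 215 to 249 against 281 to 299 CPM.

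Leaving out nocodazole replicate 1 brought up the sterol pathway. Of 29 genes of cholesterol synthesis and SREBP control, 0 were called with all libraries, while 11 were called higher and 0 lower without replicate 1, among them Mvd, Idi1, Fdps, Fdft1, Lss, Cyp51, Sc5d, Acat2 and Fasn. The share of 37.9% stands beside 0.426% of all genes. The median change of the 29 genes was 0.48 with all libraries, with 28 above 0, and 0.61 without replicate 1, with 27 above 0, while the median of all tested genes was below 0.01 in size in both fits. Without inhibitor the same genes had a median of -0.16, with 1 called higher and 5 lower, beside 18.6% and 19.0% of all genes. By the test of the difference, the nocodazole change was more positive with inhibitor for 19 of the 29 genes with all libraries. It was so for 26 without replicate 1, beside 9.52% and 14.1% of all genes in the 2 fits. It was more negative for 0, beside 9.20% and 12.7%. The count without replicate 1 was 4, 4 and 17 on leaving out vehicle replicate 2, 3 or 4 as well, and 4, 1 and 5 on leaving out nocodazole replicate 2, 3 or 4, while DESeq2 and limma with sample weights each called 13 with all libraries. The list was written with earlier results of these data known.

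Promoters of the pathway are shown because sterol elements and CCAAT boxes, where the NF-Y partner of SREBP binds, are its known control sequences. RefSeq promoter windows on GRCm38.p6 were at hand for 18 of the 29 genes. In the 250 bases before the start, searched on both strands, CCAAT stood in 16 of the 18, against 37.5% of 27025 genes with a window, and the sterol element TCACNCCAC in 1 of the 18, against 1.22%. The E-box CACGTG stood in 5 of the 18, against 6.86%. Of the 8 called sterol genes with a window, CCAAT stood in 7 and the sterol element in 0. Of the 70 windows among the 83 genes called higher without replicate 1, CCAAT stood in 49 and the sterol element in 0, so CCAAT was common beyond the sterol list, and the sterol element shown is in Hmgcs1, which was not called. No match of 1 motif overlaps a match of another in the stretches shown. Capitals mark the matches, and each stretch is written 5′ to 3′ on the strand of the gene.
Hmgcs1, sterol element, chr13:119690184-119690252, plus strand: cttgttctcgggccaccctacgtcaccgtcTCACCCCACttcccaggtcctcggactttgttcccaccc
Cyp51, CCAAT box, chr5:4104698-4104756, minus strand: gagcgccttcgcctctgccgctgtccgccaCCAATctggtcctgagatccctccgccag
Sc5d, CCAAT box as its reverse complement, chr9:42264301-42264354, minus strand: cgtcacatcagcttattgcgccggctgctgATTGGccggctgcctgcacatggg
Lss, CCAAT box as its reverse complement, chr10:76531513-76531577, plus strand: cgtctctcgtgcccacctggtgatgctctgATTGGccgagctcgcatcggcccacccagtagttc
Insig1, CCAAT box as its reverse complement, chr5:28071166-28071230, plus strand: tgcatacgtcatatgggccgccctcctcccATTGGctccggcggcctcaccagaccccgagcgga
A match is a run of letters, and no binding was measured.

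The early steps of the pathway build the isoprenoid units. Hmgcs1, the synthase that makes HMG-CoA, measured 1675, 1369, 1370 and 1897 CPM with vehicle and 1510, 2137, 2362 and 1934 CPM with nocodazole. Replicates 2 to 4 lay above every vehicle library and replicate 1 did not. It was not called, at 0.44 ± 0.134 without replicate 1 (adjusted p = 0.316). The Hmgcs1 change was nonetheless more positive than that without inhibitor, by 0.74 ± 0.205 with all libraries (adjusted p = 0.0198).

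Mvd, the mevalonate diphosphate decarboxylase, had the largest change of the enzymes called. It measured 145, 99.3, 109 and 155 CPM with vehicle and 160, 255, 253 and 259 CPM with nocodazole. Replicate 1 stayed next to the vehicle values, while the lowest of the other 3 was 1.63 times the highest of them. The change was 0.87 ± 0.174 (adjusted p = 0.0854), and 1.01 ± 0.154 without replicate 1 (adjusted p = 0.00564). Fdps, which makes farnesyl diphosphate, measured 286, 234, 250 and 326 CPM with vehicle and 300, 411, 430 and 394 CPM with nocodazole (0.59 ± 0.0894 without replicate 1, adjusted p = 0.00564). Acat2, the thiolase of the first step, changed by 0.52 ± 0.0825 without replicate 1 (adjusted p = 0.0074) and by 0.42 ± 0.104 with all libraries (0.194).

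Late enzymes moved alike. Cyp51, the lanosterol demethylase, measured 197, 163, 162 and 215 CPM with vehicle and 227, 325, 341 and 298 CPM with nocodazole. Its groups did not overlap even with replicate 1, and the change was 0.69 ± 0.135 with all libraries (adjusted p = 0.0783) and 0.80 ± 0.122 without replicate 1 (0.00564). Of the 29 genes, 9 had every nocodazole library above every vehicle library, against 2.03% of all tested genes. Without replicate 1 there were 26, against 5.22%, and 1, the sterol exporter gene Abcg1, lay below, as 1.25% and 3.33% of all genes did in the 2 sets of samples. Ebp, the sterol isomerase, which is outside the list, measured 24.9, 17.9, 21.6 and 27.1 CPM with vehicle and 22.7, 43.5, 44.2 and 41.0 CPM with nocodazole. Without replicate 1 its change was 0.91 ± 0.110 (adjusted p = 0.00216).

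Insig1, the sterol-regulated brake on SREBP, measured 131, 101, 101 and 155 CPM with vehicle and 178, 284, 273 and 240 CPM with nocodazole. All 4 nocodazole libraries exceeded the vehicle libraries. Its change was 1.00 ± 0.237 (adjusted p = 0.168), and 1.12 ± 0.238 without replicate 1, and its adjusted p of 0.05001 fell just short of the threshold. The Insig1 change was more positive than that without inhibitor, by 1.18 ± 0.335 (adjusted p = 0.022). Abca1, a sterol exporter that sterol-sensing receptors rather than SREBP switch on, ran from 14.8 to 30.3 CPM with vehicle and from 15.1 to 28.9 CPM with nocodazole, with no separation.

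The summed level of the 29 genes was 13090, 10360, 10630 and 13550 CPM with vehicle and 12530, 17720, 18360 and 16660 CPM with nocodazole. Within the vehicle group, replicates 1 and 4, which lay low on the slope, were higher than replicates 2 and 3, so the sterol sum moved with the axis that divides that group. Nocodazole replicates 2 to 4 exceeded all 4 vehicle libraries on either side of it. Without inhibitor the sums ran from 9749 to 13010 CPM with vehicle and from 9294 to 11140 CPM with nocodazole. The part of the vehicle spread in the sterol result was not tested.

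**Figure D3:**
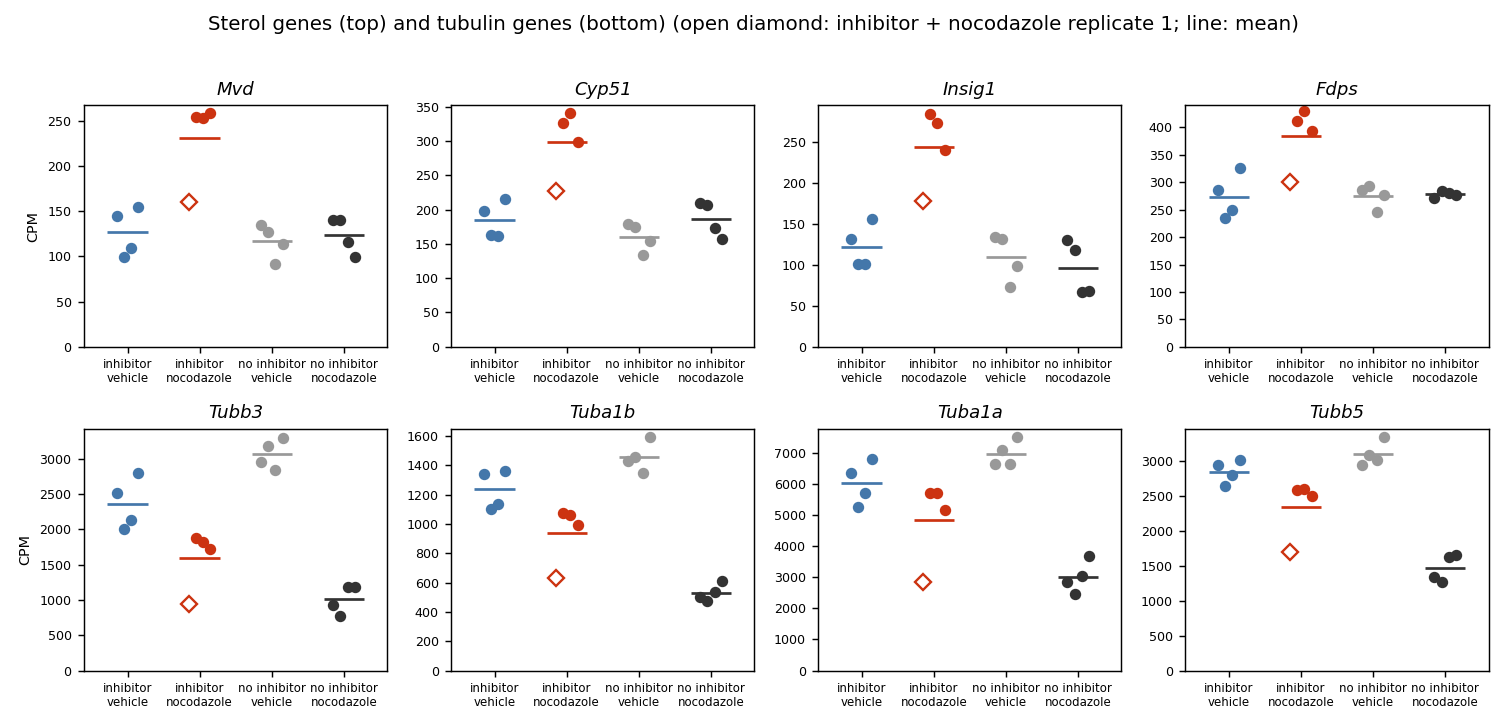
CPM (vertical axes, from 0) of 4 sterol genes (top row) and 4 tubulin genes (bottom row) in the 16 libraries, by group, with the mean as a line and nocodazole replicate 1 of the inhibitor group as an open diamond. Nocodazole replicates 2 to 4 with inhibitor lie above all other libraries for Insig1 (240 to 284 CPM), and between vehicle and the nocodazole libraries without inhibitor for Tubb3 (1724 to 1876 CPM).

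Genes of fatty acid and phospholipid synthesis stood beside the sterol enzymes. These lists were put together after their values were seen, so their counts are a description. Of 30 such genes, 1 was called higher with all libraries and 9 without replicate 1, beside 0.0783% and 0.426% of all genes, and 0 were lower. Unlike the sterol list, these genes were often called higher without inhibitor too. There 12 were called higher and 3 lower, beside 18.6% and 19.0% of all genes, at a median of 0.096. By the test of the difference, the change was more positive with inhibitor for 8 and more negative for 3, beside 9.52% and 9.20%. Acsl3, an acyl-CoA synthetase of lipid droplets, measured 102, 75.9, 83.9 and 110 CPM with vehicle and 131, 178, 184 and 171 CPM with nocodazole (0.93 ± 0.155 without replicate 1, adjusted p = 0.0104). Fasn, the fatty acid synthase, which is also in the sterol list, measured 2114, 1552, 1676 and 1900 CPM with vehicle and 1813, 2884, 2788 and 2623 CPM with nocodazole. Its change was 0.61 ± 0.110 without replicate 1 (adjusted p = 0.0195) and 0.48 ± 0.136 with all libraries (0.314). The desaturase Fads2, the elongases Elovl5 and Elovl6, Acly and Acss2, which make acetyl-CoA, and Lpcat3, which remodels phospholipids, changed by 0.64, 0.47, 0.59, 0.49, 0.61 and 0.76 without replicate 1, all called. With all libraries these genes changed by 0.49, 0.36, 0.53, 0.36, 0.51 and 0.66, and none was called (adjusted p from 0.0838 to 0.600). Of 15 further sterol pathway and transport genes, 5 were called higher and 0 lower without replicate 1, beside the same 0.426%. Without inhibitor, 6 of the 15 were called higher and 1 lower in that fit, beside 19.5% and 20.4% of all genes.

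Other genes called only when replicate 1 was left out were spread over several functions. Klf10, a zinc finger transcription factor, measured 7.46, 8.17, 7.64 and 8.23 CPM with vehicle and 10.4, 15.0, 16.3 and 14.4 CPM with nocodazole (0.95 ± 0.141, adjusted p = 0.00493). Rassf2, a Ras association domain protein, measured 10.8, 5.70, 10.1 and 9.17 CPM with vehicle and 18.0, 26.3, 17.4 and 38.5 CPM with nocodazole (1.61 ± 0.307, adjusted p = 0.026). Rab33a, a small GTPase of vesicle transport, and Pradc1, a secreted protein, changed by 0.88 and 0.89 without replicate 1. With all libraries they changed by 0.67 and 0.72 (adjusted p = 0.431 and 0.227). Ttll5, a tubulin polyglutamylase, measured 51.9, 47.9, 47.1 and 51.5 CPM with vehicle and 52.5, 70.7, 67.8 and 64.8 CPM with nocodazole (0.45 ± 0.0599, adjusted p = 0.00249). It was the 1 called gene among 24 tubulin-modifying enzymes.

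Stat2, a transducer of interferon signals, measured 197, 147, 166 and 189 CPM with vehicle and 158, 256, 239 and 248 CPM with nocodazole, and was called without replicate 1 (0.50 ± 0.0857, adjusted p = 0.0121). With all libraries its change was 0.37 ± 0.123 and was not called (adjusted p = 0.518). Without inhibitor it fell by 0.72 on the log2 scale (adjusted p = 0.000258), and the difference of 1.09 ± 0.175 passed with all libraries (0.000573). It was the 1 called gene among 15 measured interferon response genes. The 5 genes called lower without replicate 1 included Zfhx2, a homeobox factor of sensory neurons, Dpy19l3, a mannosyltransferase, Rusc1 and Dtna, a dystrobrevin, at -0.39, -0.38, -0.37 and -0.27. Dtna had risen without inhibitor (0.44 ± 0.0643), and its difference of -0.64 ± 0.0913 passed with all libraries (adjusted p = 0.000232). Of the 83 genes called higher, 22 were called higher and 9 lower without inhibitor in that set of samples, where 19.5% and 20.4% of all genes were. The difference test gave a more positive change with inhibitor for 58 and a more negative one for 5, against 14.1% and 12.7% of all genes, but it uses the libraries on which the 83 were chosen.

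Tubulin mRNA is the readout closest to the drug's target. None of the 15 measured tubulin genes was called with inhibitor, with or without replicate 1, under edgeR. Their median change was -0.31 with all libraries and -0.15 without replicate 1, with 3 of the 15 above 0 in both. Without inhibitor 13 of the 15 were called lower and 1 higher, beside 19.0% and 18.6% of all genes, with a median of -1.07. The change was less negative with inhibitor, by the test of the difference, for 11 of the 15 with all libraries and for 13 without replicate 1. Of all genes, 9.52% and 14.1% had a more positive change with inhibitor by that test. Tubulin genes are close paralogs, and how the authors' counting shared reads between them is not given in the sources used here.

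Tubb3, the neuronal beta-tubulin, measured 2514, 2005, 2137 and 2795 CPM with vehicle and 945, 1876, 1819 and 1724 CPM with nocodazole. Every nocodazole library lay below every vehicle library, with replicates 2 to 4 close under vehicle replicate 2. The change was -0.57 ± 0.182 (adjusted p = 0.46), and -0.39 ± 0.135 without replicate 1 (0.432). Without inhibitor Tubb3 changed by -1.6, from 3065 ± 202 (SD, n = 4) to 1014 ± 203 CPM (SD, n = 4), and replicate 1 of the inhibitor plus nocodazole group, at 945 CPM, lay at that level. The difference between the changes was 1.03 ± 0.258 (adjusted p = 0.0117).

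Tuba1b, an alpha-tubulin, measured 1343, 1102, 1137 and 1360 CPM with vehicle and 629, 1074, 1062 and 990 CPM with nocodazole. Its groups did not overlap, though the highest nocodazole library, at 1074 CPM, lay close under the lowest vehicle library, at 1102 CPM. Tuba1b was not called (-0.25 ± 0.093 without replicate 1, adjusted p = 0.504). The difference from the change without inhibitor was 1.06 ± 0.192 (adjusted p = 0.00146). Tubb5 and Tuba4a were the other tubulins whose groups did not overlap, 4 of 15 against 1.25% of all tested genes. Tuba1a, the most abundant alpha-tubulin by CPM here, measured 6339, 5237, 5689 and 6801 CPM with vehicle and 2831, 5714, 5694 and 5149 CPM with nocodazole, and overlapped. Ttc5 and Scaper, which act in the autoregulatory pathway ahead of the decay itself, ran from 35.1 to 39.3 CPM and from 66.7 to 74.7 CPM over the 8 libraries and were not called.

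No member of the ATF4 and integrated stress response list was called with inhibitor by edgeR, though most rose without it. Each of the 50 measured genes of ATF4 and the integrated stress response had a change above 0 with all libraries, at a median of 0.24, and 46 without replicate 1, at 0.19, but 0 were called by edgeR in either, and 3 by DESeq2 with all libraries. Without inhibitor 49 were called higher, beside 18.6% of all genes, at a median of 0.78. For 32 the change was smaller with inhibitor by the test of the difference, or 36 without replicate 1. Of all genes, 9.20% and 12.7% had a more negative change with inhibitor by that test. In 15 of the 50 every nocodazole library with inhibitor exceeded every vehicle library, against 2.03% of all genes. Atf4 itself measured 281, 291, 294 and 275 CPM with vehicle and 373, 347, 377 and 414 CPM with nocodazole, a clear separation with replicate 1 inside the nocodazole range. The change of 0.41 ± 0.0903 missed the edgeR threshold (adjusted p = 0.129), and passed by DESeq2 (0.00571). Without inhibitor it was 0.67 ± 0.0906, and the difference of -0.27 did not pass (adjusted p = 0.152).

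The Atf4 targets Sesn2 and Ddit3 varied more between libraries than Atf4 did. Sesn2, a stress sestrin that restrains mTORC1, measured 38.3, 65.1, 60.6 and 39.9 CPM with vehicle and 88.5, 66.1, 69.9 and 72.9 CPM with nocodazole. Its vehicle libraries divided as they did on the slope, replicates 2 and 3 being higher, and nocodazole replicates 2 to 4 lay just above those. Ddit3, the death-linked factor CHOP, measured 26.1, 51.1, 56.4 and 29.2 CPM with vehicle and 96.3, 48.5, 49.1 and 49.8 CPM with nocodazole. The groups overlapped, the highest value being that of replicate 1, and the change without that library was 0.28 ± 0.237 (adjusted p = 0.825). The Ddit3 change without inhibitor was larger by 2.15 on the log2 scale (difference -2.15 ± 0.381, adjusted p = 0.00121). Asns, the asparagine synthetase, ran from 308 to 360 CPM with vehicle and from 334 to 392 CPM with nocodazole.

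Of 14 measured AP-1 and ATF factors, 0 were called with inhibitor in either set of samples. Without it 10 were called higher, beside 18.6% of all genes. For 8 the change was smaller with inhibitor, beside 9.20% of all genes with a more negative change. Atf3, an injury factor downstream of JNK, measured 1.13, 2.35, 2.41 and 1.47 CPM with vehicle and 5.60, 2.60, 3.13 and 2.71 CPM with nocodazole. These values do not overlap, yet lie far under the mean of 181 CPM with nocodazole alone. The change of 0.97 ± 0.438 with all libraries, of which replicate 1 was the highest, did not pass (adjusted p = 0.827). The difference from the change without inhibitor was -4.41 ± 0.580 (adjusted p = 0.000116). Jun measured 1.96, 0.843, 1.5 and 21.1 CPM with vehicle and 0.841, 1.38, 1.40 and 1.44 CPM with nocodazole, so its negative change of -2.38 (adjusted p = 0.553) came with 1 high vehicle library, replicate 4. Without that library the change was -0.205 and its difference from the change without inhibitor -1.86 (adjusted p = 0.0205), against -4.05 with all libraries (0.0105). Jund was high in the same library, at 119 CPM against 49.2 to 56.8 CPM in the other 3.

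**Figure D4:**
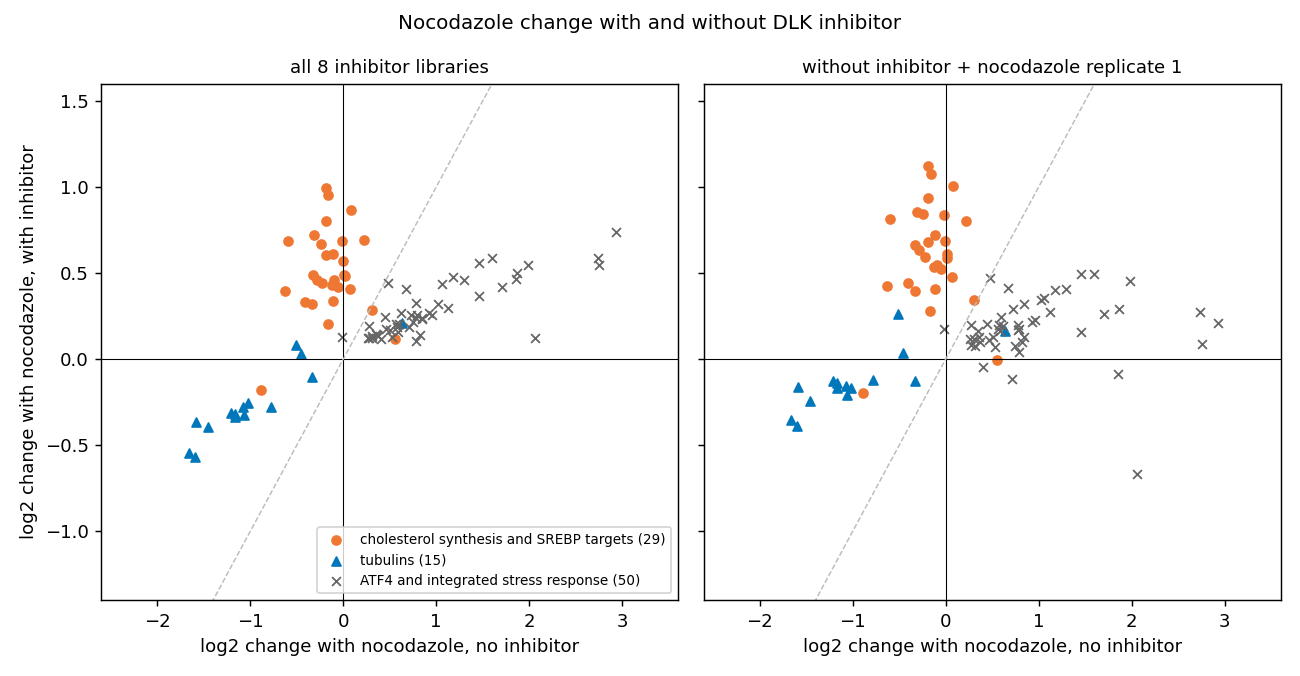
Log2 change with nocodazole without inhibitor (horizontal) against that with inhibitor (vertical) for genes of 3 lists, with all libraries (left) and without inhibitor plus nocodazole replicate 1 (right); the dashed line marks equal changes and each point is 1 gene. On the right, 27 of the 29 sterol genes lie above 0 on the vertical axis at a median of 0.61, with a median of -0.16 on the horizontal one, while 12 of the 15 tubulin genes lie below 0 on the vertical axis and the stress genes lie at right, at a vertical median of 0.19.

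Most other lists gave no call with inhibitor. Of the 36 lists, the 31 other than tubulin-modifying, sterol, endoplasmic reticulum, Golgi and interferon genes had 0 called members in both sets of samples. The unfolded protein response list had 1, Xbp1, and the Golgi list 1, Siah2. The endoplasmic reticulum chaperone genes Hspa5 and Dnajb9 ran from 134 to 173 and from 12.6 to 15.1 CPM with vehicle, and from 160 to 191 and from 14.2 to 16.0 CPM with nocodazole. Sensory neuron identity genes had a median of -0.03 with all libraries and 0.04 without replicate 1, beside -0.44 without inhibitor. There 18 of 37 were called lower and 6 higher, beside 19.0% and 18.6% of all genes. Voltage-gated ion channel genes had medians of -0.02 and 0.05, beside -0.39. Without replicate 1, 8 of 22 NRF2 targets and 8 of 29 autophagy and lysosome genes had every nocodazole library above every vehicle library, against 5.22% of all genes, with medians of 0.12 and 0.08; with all libraries these were 3 and 1, against 2.03%. Immediate early genes had medians of 0.26 and 0.21, fibroblast markers -0.27 and -0.13, and mural cell markers -0.30 and -0.24. All 13 mitochondrially encoded genes had a change below 0, at medians of -0.19 and -0.28, and none was called by edgeR.

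**Figure D5:**
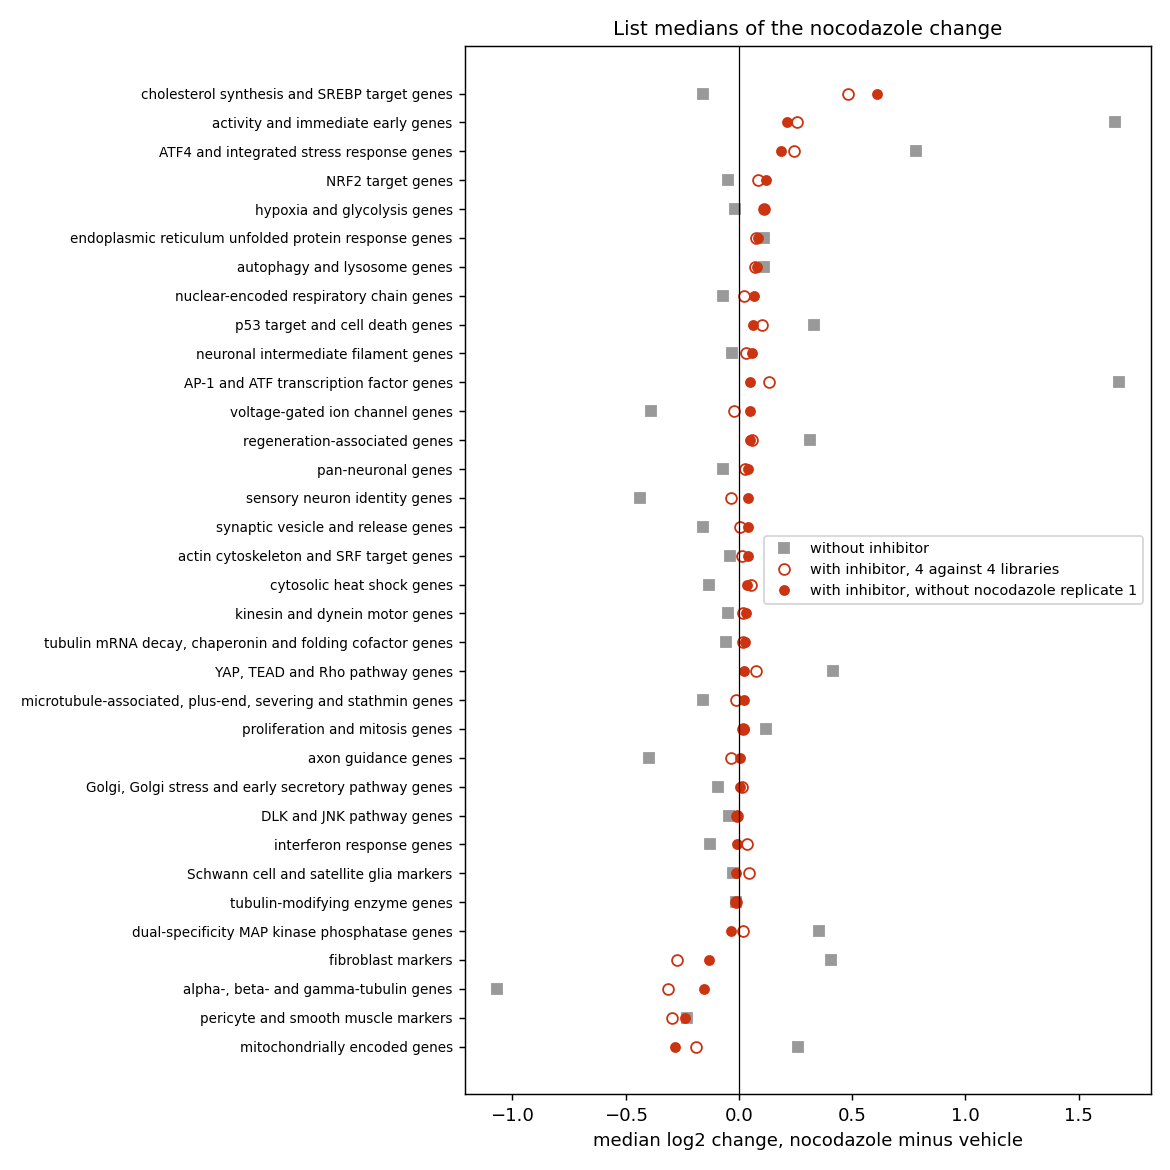
Median log2 change over the measured genes of each of 34 lists (horizontal axis), with inhibitor for all libraries (open circles) and without nocodazole replicate 1 (filled circles), and without inhibitor (grey squares); the endothelial and macrophage lists, with at most 3 measured genes, are left out. The sterol list has the highest median with inhibitor, 0.61 without replicate 1 and -0.16 without inhibitor.

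The genes whose changes differed with the smallest p had large changes without inhibitor and little or none with it. Flrt2, an axon guidance receptor, changed by -0.08 ± 0.0968 with inhibitor and by -2.43 without (difference 2.35 ± 0.146, adjusted p = 1.81e-07). Dclk3, Eepd1, Gpr37 and Chrm4 followed, at -0.07, 0.07, 0.07 and -0.17 with inhibitor and -2.03, -1.93, -1.32 and -1.56 without. Among genes with a more negative change under inhibitor, Sec11c, a subunit of signal peptidase, changed by -0.10 ± 0.0654 with inhibitor and by 1.35 without. Igsf9b, Dnajb9, Dock9 and Mdm2, the last the ubiquitin ligase that acts on p53, stood at -0.18, 0.15, 0.05 and 0.10 with inhibitor and at 0.85, 1.74, 1.22 and 1.37 without. None of these 10 genes was called with inhibitor in either set of samples.

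Circadian clock genes were looked at as a group after Per3 and Ciart had been seen among the calls. Of 22 measured clock genes, 2 were called higher with all libraries and 3 without replicate 1, beside 0.0783% and 0.426% of all genes. The 2 are Per3 and Ciart, the calls that prompted the list, so these counts are no result. The medians of the clock genes were 0.21 and 0.10. Without inhibitor 14 were called higher, beside 18.6% of all genes, at a median of 0.55. For 5 of the 22 the change was smaller with inhibitor by the test of the difference, and for 0 it was larger. Of all genes, 9.20% had a more negative and 9.52% a more positive change with inhibitor.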

How the data were processed

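RNA was total RNA depleted of ribosomal RNA, per the labels' protocols. The authors deposited raw counts per gene for 16 libraries, and the submitters' processing notes name STAR, Salmon and GRCm39 with no versions or roles. Strand and the treatment of shared reads are not given in the sources used here. Of 55356 identifiers, 52080 (94.1%) were given symbols from a GRCm38 name table. Members and lists were chosen with earlier results of these data known.

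edgeR 4.0.16 (R 4.3.3) fitted the counts of all 16 libraries with 1 mean per group, TMM scaling (factors 0.9832 to 1.064 with inhibitor), filterByExpr and the quasi-likelihood test, adjusted by Benjamini-Hochberg. The fit was repeated without inhibitor plus nocodazole replicate 1. Named genes were the 10 largest called changes in each direction at a mean of at least 10 CPM in both fits, key genes of 36 lists, up to 4 further members of each with the smallest p, and the 5 smallest p in each direction of the difference test. The other called genes of the text were chosen after their values were seen. Alternatives were DESeq2 1.42.0, limma 3.58.1 with sample weights, other scaling and filters, fewer libraries and each replicate left out. The fit was tested on simulated data. Some items are not reported here.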

Additional observations from a re-analysis of the deposited data

Results flagged for a closer look

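In 15 of the 108 groups of 4 libraries checked, 1 library lay farther from the other 3 than a Dixon test allows. Chance flags about 1 in 20 independent groups, but these are not independent, and many genes were picked because inhibitor plus nocodazole replicate 1 was known to differ in tubulin mRNA or because they were called on leaving it out, so the count is a description. That library accounts for 13 of the 15. It was lowest in Tubb3 (945 CPM, others 1720 to 1880), Tubb5 (1700, others 2500 to 2600), Tubb2b (1110, others 1840 to 1900), Tuba4a (93.6, others 134 to 136) and the tubulin sum (8990, others 15400 to 16600). It was also lowest in the sterol genes Mvd (160 CPM, others 253 to 259), Acat2 (298, others 408 to 420) and Ebp (22.7, others 41 to 44.2), in Rab33a (27.3, others 57.2 to 62) and in Jun (0.841, others 1.38 to 1.44). It was highest in Ddit3 (96.3 CPM, others 48.5 to 49.8), on the first principal component (52.1, others -20.7 to -14.1) and in the slope (0.308, others -0.0333 to -0.0197). Inhibitor plus vehicle replicate 4 was highest in Jun (21.1 CPM, others 0.843 to 1.96) and Jund (119 CPM, others 49.2 to 56.8).

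For all 15 genes checked, the nocodazole change differed with and without inhibitor by edgeR's test with Benjamini-Hochberg adjustment. The genes had been picked because they differed, so that count is no result. The log2 change was more positive with inhibitor for Usp1 (1.11, adjusted p = 0.0144), Borcs6 (0.687, 0.00396), Nfe2l1 (0.271, 0.0238), Stat2 (1.09, 0.000573), Tubb3 (1.03, 0.0117) and Tuba1b (1.06, 0.00146). The same held for the sterol genes Mvd (0.785, 0.0343), Hmgcs1 (0.74, 0.0198) and Insig1 (1.18, 0.022). It was more negative for Atf3 (-4.41, 0.000116), Jun (-4.05, 0.0105, and -1.86, 0.0205, without vehicle replicate 4 with its 21.1 CPM), Ddit3 (-2.15, 0.00121), Ifrd1 (-1.16, 0.000461), Xbp1 (-0.307, 0.0171) and Dtna (-0.637, 0.000232).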

How the results depend on the processing

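The count of genes called with inhibitor depended on the settings. Against 15 higher and 1 lower, leaving out 1 library at a time gave 3 to 83 higher and 0 to 5 lower, the 83 and 5 without nocodazole replicate 1; the others gave 5, 8, 3 and 6 higher without vehicle replicates 1 to 4, and 5, 6 and 6 without nocodazole replicates 2 to 4, each with 0 lower. DESeq2 called 118 and 7, limma with sample weights 88 and 3, no filter 28 and 0, the libraries with inhibitor alone 6 and 0, and those without nocodazole replicate 1 gave 65 and 4. A filter at a mean of 1 CPM gave 2 lower. The cause was not tested. Without nocodazole replicate 1, the 83 higher and 5 lower became 23 to 103 and 0 to 7 on leaving out a further library: 37, 31, 23, 23 and 37 higher and 2, 2, 0, 1 and 2 lower without vehicle replicates 2 and 3 and nocodazole replicates 2, 3 and 4. DESeq2 gave 158 and 22 there. The count of genes whose change was more positive with inhibitor ran from 1328 to 2740 over single libraries left out, the last without nocodazole replicate 1.

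Same-numbered libraries of the vehicle and nocodazole groups with inhibitor correlated at -0.399, -0.115, -0.191 and 0.165, so the numbers are not taken to pair them. With the replicate number as a block, 5 genes were called higher and 0 lower, or 76 and 2 without nocodazole replicate 1, and the change differed upward for 1710 and downward for 1747 genes. Jund turned positive without vehicle replicate 4 (0.0764, or 0.0531 without nocodazole replicate 1 as well), and ran down to -0.441 and -0.551 in those 2 sets on leaving out other libraries.

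Mvd lost its call of a difference with the block (adjusted p = 0.0526) and on leaving out any 1 of 10 libraries, and Nfe2l1 without nocodazole replicate 4 (0.0548). Relative counting error is larger at a few CPM, as for Usp1, Atf3 and Jun with inhibitor, than for abundant genes. The SE of Usp1 without nocodazole replicate 1, 0.137, was still under the median SE of 0.148 there.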
